A study of Mus musculus with 9 samples.

Results

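Levels of mature miRNAs were compared between 3 serum libraries depleted of 5′ tRNA-half fragments with beads and 3 undepleted control libraries, out of 9 small RNA libraries in the whole series. The members were chosen by their depletion label alone (beads or none), and each beads-depleted library has a control library of the same serum pool (A, B or C). Ratios within pools use this pairing. The calls, fitted fold changes, SE and p-values come from a fit with the group alone, without the pool. All 6 libraries came from serum of healthy 129/SVj mice, males and females combined, aged 2 to 9 months, with no genetic modification named in the labels. In the beads protocol, biotin-labelled DNA probes against 5′ tRNA-half fragments of glutamine, glycine, valine and histidine tRNAs were captured on streptavidin beads, and the RNA left in solution was precipitated with ethanol and sequenced, whereas control RNA of the same pool went into the library without capture or precipitation being described for it. The labels name 3 serum pools, while the protocol describes aliquots of a single pool of serum from 3 mice. If the pools are such aliquots, the spread between replicates and the p-values cover technical variation only. The comparison addresses whether the capture left the relative levels of miRNAs as they were.

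miRNAs are short RNAs, cut from hairpin precursors, that guide Argonaute proteins to messenger RNAs and lower their output. Target choice rests mostly on the seed, bases 2 to 8 counted from the 5′ end, so miRNAs with the same seed form a family. Neighbouring hairpins are often transcribed together as a cluster. In serum, miRNAs circulate bound to proteins or inside vesicles and come from blood cells and from tissues.

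The deposited files name each miRNA only by its miRBase identifier (MIMAT and a number), and no table used here pairs these identifiers with names, sequences or hairpins. The single exception was MIMAT0000527, which the study itself names as mmu-miR-16-5p. Of the 875 identifiers with a count in at least 1 of the 6 libraries, 1 could therefore be given a name. Changes of seed families, of hairpin clusters, of hairpin arms and of tissue marker miRNAs were not analysed here, and for the same reason it could not be checked that miRNAs known from blood cells, other than miR-16-5p, were present. Beyond miR-16-5p, at most 2 identifiers per direction are named, and all others are described by their number, rank and level.

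The mature sequence of miR-16-5p is shown because it is the identified miRNA of the comparison. As examples of its family, 3 RefSeq miRNAs of the same seed are shown (GRCm38.p6). Capitals mark the seed, bases 2 to 8.
mmu-miR-16-5p: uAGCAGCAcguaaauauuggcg
mmu-miR-195a-5p: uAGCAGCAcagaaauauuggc
mmu-miR-15a-5p: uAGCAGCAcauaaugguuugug
mmu-miR-15b-5p: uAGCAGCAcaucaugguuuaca
Aligned from their first base without gaps, miR-195a-5p differed from miR-16-5p at 2 of 21 positions, miR-15a-5p at 6 of 22 and miR-15b-5p at 8 of 22, and each of the 3 shared its first 9 bases with miR-16-5p. The RefSeq table holds 1738 mature entries, with 1 entry for each locus. At least 10 distinct miRNA names in it carried this seed, miR-16-5p included, each counted once whatever its number of loci. Among those not shown, miR-195b and miR-6353 differed from miR-16-5p at 6 and 7 of 22 positions. Less alike were miR-322-5p, miR-6342, miR-497a-5p and miR-6419, which differed at 10 to 12 of 22 positions, the first base included. The counts of the 3 relatives shown were not matched to identifiers. The miR-16-5p sequence lies at chromosome 14, 61631936 to 61631957 on the minus strand, in the hairpin Mir16-1, which overlaps the non-coding gene Dleu2 and an annotated exon of it. It also lies at chromosome 3, 69009918 to 69009939 on the plus strand, in the hairpin Mir16-2 inside the protein-coding gene Smc4 and outside its annotated exons. The counts cannot be divided between both hairpins.

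The beads-depleted libraries held 1822088 to 1995956 miRNA counts and the control libraries 205185 to 330676. Reads annotated as tRNA still made up 26.6% (pool B) to 46.5% (pool C) of the annotated counts after beads depletion, against 93.1% to 94.9% in control. All levels below are counts per 1000000 miRNA counts of the same library (CPM), so they are relative to the other miRNAs and say nothing of the amount of RNA in serum. A count of 3, taken as the floor of a single library, corresponded to at most 1.65 CPM in beads-depleted libraries and to 9.07 to 14.6 CPM in control libraries. Such floors describe counting error alone, because PCR copies could not be told from separate molecules.

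miR-16-5p, an abundant miRNA of red blood cells and of most other tissues, ranked first in control and took a smaller share after beads depletion. Its level was 137388, 137376 and 134502 CPM in control pools A, B and C. In the beads-depleted libraries it was 108222, 108222 and 105745 CPM. The groups did not overlap, and each group spanned a narrow range. The mean was 136422 ± 1663 CPM in control and 107396 ± 1430 CPM in beads-depleted libraries (SD, n = 3), which moved miR-16-5p from rank 1 to rank 3. This was 0.791-fold, with a log2 fold change (± SE) of -0.34 ± 0.051 and an adjusted p of 5.51e-10 in edgeR's quasi-likelihood test. The log2 ratio within a pool was -0.34 in pool A, -0.34 in pool B and -0.35 in pool C. The mean number of miR-16-5p reads itself was 5.76 times as high after depletion.

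In all, 307 miRNAs passed the filter on low counts and were tested. Of these, 82 were called at an adjusted p below 0.05 (26.7% of those tested), with 51 higher (16.6%) and 31 lower (10.1%) in beads-depleted libraries. This share is the background against which any single call is to be read. Without pool B, 45 were called higher and 20 lower. The sign of the change was shared by all pools for each of the 82, and also for 80 of the 225 miRNAs that were not called. The groups did not overlap for 78 of the 82 called and for 119 of all 307 tested miRNAs. The median log2 fold change of all tested miRNAs was 0.043, and the middle of the distribution was narrow, from -0.22 at the lower to 0.40 at the upper quartile. A log2 fold change of less than 0.5 in either direction was measured for 210 miRNAs (68.4%) and of less than 1 for 253 (82.4%). Every one of the 31 lower miRNAs had more raw counts after depletion in all 3 pools, with a ratio of the mean counts between 1.97 and 6.47. Their fall is thus relative to the other miRNAs. Raw counts depend on the rest of the library and do not give the amount of RNA left.

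**Figure D1:**
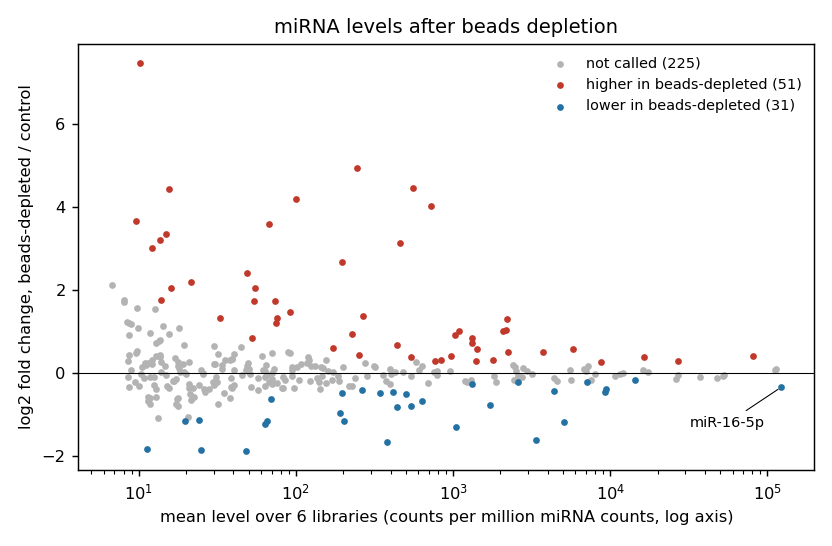
Log2 fold change of each of the 307 tested miRNAs (beads-depleted over control, y axis) against its mean level over the 6 libraries (CPM, log x axis). Red points mark the 51 miRNAs called higher, blue points the 31 called lower, and the widest changes are rises of miRNAs below 1000 CPM. The point at 7.47 is a miRNA with no count in control, whose fitted fold change is not a bound.

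Large rises were measured mostly for miRNAs with few control counts. Of the 51 higher miRNAs, 17 rose more than 4-fold, 12 rose between 2- and 4-fold and 22 rose up to 2-fold. No miRNA fell more than 4-fold, 12 fell more than 2-fold and 19 fell up to 2-fold. The median log2 fold change was 1.20 for the higher and -0.76 for the lower miRNAs. Among miRNAs with a mean of at least 10 counts in control, the sizes were closer. Of these, 12 rose and 9 fell more than 2-fold, and 4 rose and 0 fell more than 4-fold. The medians were 0.70 for the 34 higher and -0.63 for the 28 lower miRNAs. A limit on control counts alone drops miRNAs that are low in control, and so rises more than falls. The closer sizes are in part built in by this limit, and nothing is read from them. The 17 miRNAs that rose most together took 0.0356% to 0.0402% of the miRNA counts of a control library. In a beads-depleted library they took 0.446% to 0.526%. Of the 17, 13 had a mean below 10 counts in control. Most of the 17 missed the level of the filter (9.29 CPM) in at least 1 control library. These were tested through the beads-depleted group, where they are high. Nothing is therefore read from their direction, from their rarity in control or from the lack of equally large falls. 1 of the 17 had no count in control and 34 to 45 in each beads-depleted library. Set against 3 counts over the whole control group, it was at least 5.31-fold higher. Another 5 of the 17 had 1 or 2 control counts in all. The fitted median log2 fold change of the 17 was 3.36, and it was 2.69 with these 6 miRNAs set against the same floor, while that of the 51 was 1.20 either way. The largest fitted rise of a miRNA with a count in control was 31.0-fold (log2 fold change 4.96).

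Changes of up to 2-fold carried most of the shift in counts, and a large part of it came from 2 very abundant miRNAs. The 22 miRNAs that rose up to 2-fold took 13.5% to 13.8% of the miRNA counts in control and 17.1% to 18.8% in beads-depleted libraries. The miRNA at control rank 4 alone went from 69588 to 69921 CPM in control to 88382 to 97786 CPM after depletion. The 19 that fell up to 2-fold, miR-16-5p among them, took 19.4% to 19.8% in control and 15.2% to 15.8% after depletion. miR-16-5p alone took 13.5% to 13.7% in control and 10.6% to 10.8% after depletion. The 12 that fell more than 2-fold took 1.46% to 1.52% in control and 0.541% to 0.637% after depletion. The 225 miRNAs that were not called held 64.5% to 64.8% of the counts in control and 63.6% to 64.8% in beads-depleted libraries.

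Among miRNAs with a mean of at least 10 counts in each group, MIMAT0000162 rose most. It had 34.1, 42.3 and 68.4 CPM in control pools A, B and C, from 7, 14 and 17 counts. After beads depletion it had 993, 956 and 1234 CPM, from 1913, 1908 and 2249 counts. Every beads-depleted library lay far above every control library, and the control values rested on few counts. The change was 22.0-fold, 4.46 ± 0.18 (log2, SE), with an adjusted p of 4.22e-112 in edgeR, and the log2 ratio was 4.82, 4.46 and 4.15 within pools A, B and C. The miRNA moved from rank 170 in control to rank 68.

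MIMAT0000224 was the next. Its control level was 78.0, 93.7 and 76.4 CPM in pools A, B and C, from 16, 31 and 19 counts, and its level after beads depletion was 1323, 1310 and 1472 CPM. The groups were far apart and the pools lay close together within each. The change was 16.4-fold, 4.03 ± 0.15 (log2, SE), with an adjusted p of 2.24e-120 in edgeR, and the ratio within pools was 4.07, 3.79 and 4.25 on the log2 scale. It moved from rank 146 to rank 60.

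MIMAT0004859 had the largest relative fall. Its level was 78.0, 99.8 and 48.3 CPM in control pools A, B and C and 21.8, 17.0 and 24.1 CPM in the beads-depleted libraries of these pools. All control libraries lay above all beads-depleted libraries, but the pools differed in size of change, from -2.48 in pool B to -0.97 in pool C (log2 ratio). The fit over all libraries gave -1.87 ± 0.29 (log2, SE), with an adjusted p of 2.15e-09 in edgeR. MIMAT0000212 was similar in size. It had 43.9, 45.4 and 28.1 CPM in control and 10.4, 12.5 and 9.33 CPM after depletion, from 9, 15 and 7 against 20, 25 and 17 counts. The fit gave -1.85 ± 0.42 (log2, SE), with an adjusted p of 5.64e-05 in edgeR. Both falls rest on control counts of 7 to 33.

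**Figure D2:**
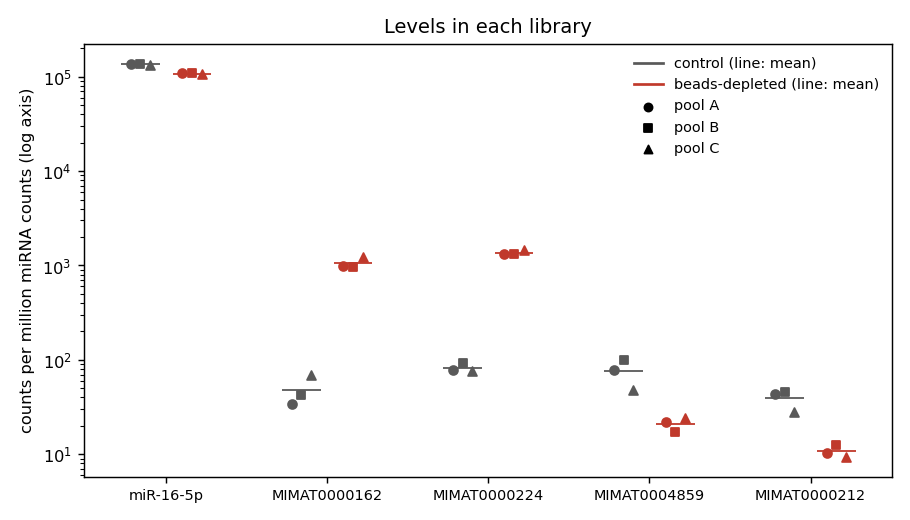
Level of miR-16-5p and of the 4 named identifiers in each of the 6 libraries (CPM, log axis), with control in grey, beads-depleted in red, a symbol for each pool and a line at the mean of 3 libraries. The groups do not overlap for any of the 5 miRNAs. miR-16-5p, at 105745 to 137388 CPM, shows the smallest change of the 5, because the other 4 were chosen for the largest changes.

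The most abundant miRNAs changed little in their joint share. The 10 most abundant of control held 67.2% to 67.6% of the miRNA counts in control and 66.6% to 66.7% in beads-depleted libraries, a small drop without overlap of the groups, and 9 of them were also among the 10 most abundant after depletion. Their log2 fold changes lay between -0.34 and 0.41. Of the 10, 2 were called, beside 26.7% of all tested miRNAs: miR-16-5p, which was lower, and the miRNA at control rank 4, which was higher. The latter had 69654, 69588 and 69921 CPM in control pools A, B and C and 90370, 88382 and 97786 CPM after depletion, a change of 1.33-fold (0.41 ± 0.053 on the log2 scale, adjusted p = 4.59e-13 in edgeR). The miRNAs at ranks 2 and 3 in control, at 104676 to 111457 CPM, were at ranks 1 and 2 after depletion, at 111002 to 119690 CPM, and did not pass the test (log2 values of 0.10 ± 0.051 and 0.07 ± 0.052, with adjusted p of 0.151 and 0.352 in edgeR).

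Of the 50 most abundant miRNAs of control, 46 were also among the 50 most abundant after depletion, and 16 were called, 6 higher and 10 lower. Over all 307 tested miRNAs, 26.7% were called, 16.6% higher and 10.1% lower. The largest fall among them was that of the miRNA at control rank 31. It had 4781, 5050 and 5448 CPM in control pools A, B and C and 1540, 1853 and 1606 CPM after depletion, 0.328-fold (-1.61 ± 0.080 on the log2 scale, adjusted p = 7.58e-76 in edgeR). The miRNA at rank 25 fell to 0.443-fold (-1.17 ± 0.075 on the log2 scale, adjusted p = 3.15e-49 in edgeR), from 6940, 7013 and 7206 to 2867, 3397 and 3071 CPM. For both, the gap between the groups was larger than the range within either group. The largest rise among the 50 was that of the miRNA at rank 34, at 4167 to 4902 CPM in control and 6532 to 7209 CPM after depletion (1.51-fold, edgeR adjusted p = 3.10e-14).

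The share of miRNAs called, 26.7% over all 307 tested, depended on level. It was 17.8% of the miRNAs with a mean level of 10 to 100 CPM and 35.2% of 71 at 100 to 1000 CPM. At 1000 to 10000 CPM, 14 were called higher and 10 lower of 48, and the share was 27.8% of 18 at or above 10000 CPM. The median size of the log2 fold change in either direction fell over the same classes, from 0.35 through 0.23 and 0.21 to 0.083, and so did the median standard error, from 0.39 to 0.060. Below 10 CPM, 18 miRNAs were tested and 1 was called. The filter also bears on the direction. In all 3 libraries of both groups, 235 miRNAs reached the level of the filter (9.29 CPM), and of these 38 were called higher and 30 lower, with a median log2 fold change of -0.02. Another 44 reached it in all 3 libraries of the beads-depleted group alone, with 13 called higher and 0 lower. Most of the miRNAs that rose more than 4-fold were among these 13. Since reaching the filter level in the beads-depleted group alone favours a higher level after depletion (4 of the 44 had a log2 fold change below 0), nothing is read from that direction.

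The changes of miRNAs were compared between pools. No library is shared between the pools, so that each pool gives a separate ratio. Across the 170 tested miRNAs with at least 10 counts in every control library, the log2 ratios of pools A and B had a Pearson's r of 0.898 and a Spearman's rho of 0.715, those of A and C an r of 0.859 and a rho of 0.609, and those of B and C an r of 0.861 and a rho of 0.696. These values are across miRNAs, which are not independent replicates and share the library and its scaling, so no p is given. The ratios had the same sign for 133 of the 170 in A and B, for 119 in A and C and for 122 in B and C. The median difference between the log2 ratios of a miRNA in 2 pools was 0.15 for A and B, 0.23 for A and C and 0.21 for B and C. The median log2 ratio was near 0 in each pool, at 0.006 in A, 0.010 in B and -0.02 in C.

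**Figure D3:**
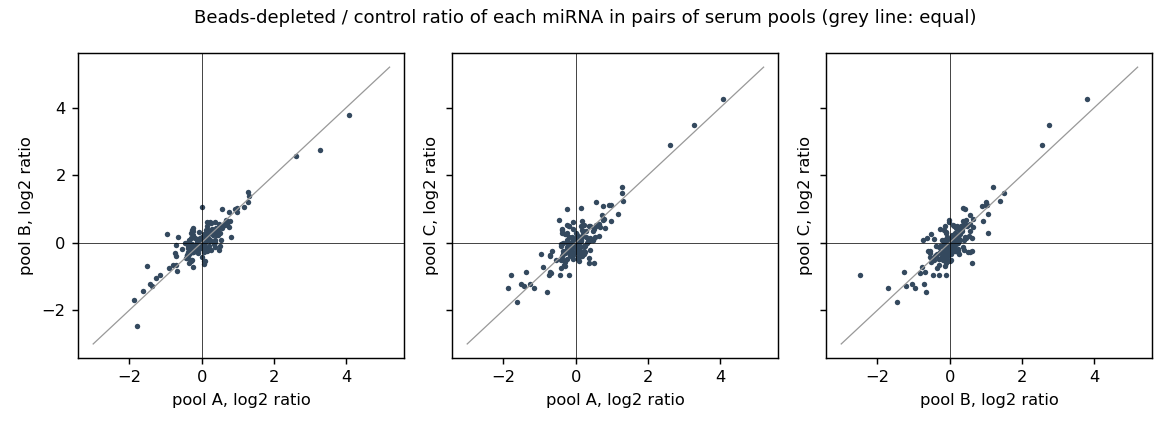
Log2 ratio of beads-depleted to control level for 170 miRNAs with at least 10 counts in every control library, plotted for pools A and B, A and C, and B and C, each point a miRNA and the grey line equal ratios. Most points lie near 0 in both pools (Spearman's rho 0.609 to 0.715). Large changes do not always lie near the line: MIMAT0004859 is at -2.48 in pool B and -0.97 in pool C.

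The spread between libraries was smaller in the beads-depleted than in the control group for rare but not for abundant miRNAs. At 10 to 100 CPM the median SD of log2(CPM + 1) was 0.45 between control and 0.23 between beads-depleted libraries, close to the 0.57 and 0.21 that counting error alone gives at median counts of 6.83 and 49.0. At 100 to 1000 CPM it was 0.16 in control and 0.12 in beads-depleted libraries, against counting errors of 0.18 and 0.061. In this class only the beads-depleted spread was above its counting error. At 1000 to 10000 CPM the order changed, with 0.071 in control and 0.098 in beads-depleted libraries, and counting error alone gave 0.056 and 0.020. At or above 10000 CPM the SD was 0.053 and 0.069, against counting errors of 0.017 and 0.0062. In both classes from 1000 CPM on, the spread was above the counting error in both groups. The difference in spread between the groups was not tested.

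**Figure D4:**
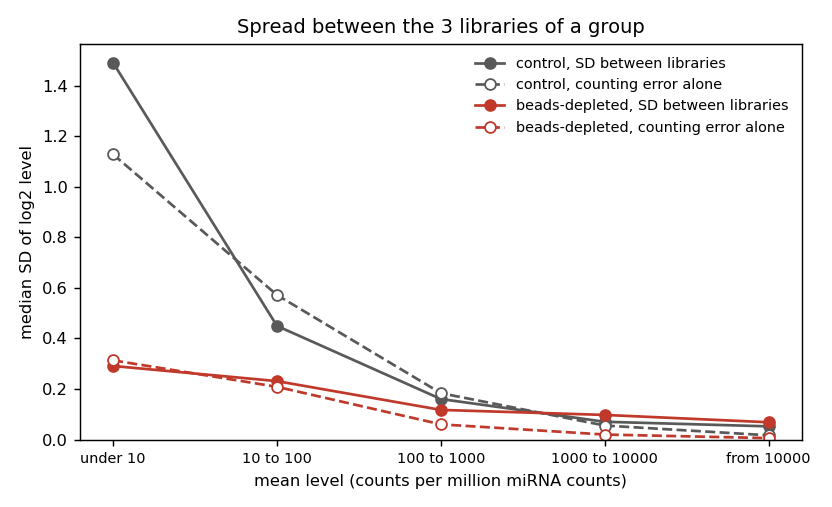
Median SD of the log2 level between the 3 libraries of a group (filled points, solid lines) and the SD that counting error alone gives (open points, dashed lines) for tested miRNAs in 5 classes of mean level (CPM). The control curve lies above the beads-depleted curve up to 1000 CPM and slightly below it from 1000 CPM on.

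More miRNAs were detected in the beads-depleted libraries, which also held more miRNA counts, so that depth and depletion cannot be told apart here. In all 3 control libraries 313 miRNAs had at least 1 count, and 312 of these had a count in all 3 beads-depleted libraries, where 514 miRNAs were detected throughout. With a count in every beads-depleted library and none in control, 58 miRNAs remained, which together made up 0.0128% of the beads-depleted miRNA counts. No miRNA had a count in every control and in no beads-depleted library. The mean count of the 58 was between 1.00 and 38.7 in beads-depleted libraries with a median of 2.83, which corresponds to a median of 0.387 counts at the depth of the control libraries. Over the whole control group, 3 counts correspond to 3.82 CPM. Of the 58, 6 had a mean level above this in beads-depleted libraries, and for the others a difference from control was not detectable at this depth.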

How the data were processed

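RNA from 200 μl of serum for each of A, B and C was divided into fractions before depletion. The labels call A, B and C pools, while the protocol describes 200 μl aliquots of a single pool from 3 mice. TruSeq small RNA libraries were amplified with 15 PCR cycles and size-selected. The authors trimmed adapters with cutadapt 1.8.1, discarded reads shorter than 15 bases, filtered on quality and mapped reads to GRCm38 with Bowtie 1.1.2 without mismatches. They annotated reads by position (miRBase v20, UCSC and Ensembl v84). The deposited values are raw counts per mature miRNA, without normalization, and raw counts per distinct read sequence of the other classes, which were used here only for the tRNA share and the total. Reads with a mismatch, such as those with untemplated ends, are in no count.

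The miRNA counts went into edgeR 4.0.16 (R 4.3.3): filterByExpr with default settings, TMM factors (0.979 to 1.01) on the miRNA sum of each library, quasi-likelihood fit and test on the 6 libraries, and Benjamini-Hochberg adjustment over all tested miRNAs with a threshold of 0.05. The model held the group alone, and the serum pool entered only an alternative fit. SE values were derived from the log2 fold change and its F statistic (change over root of F). Ratios within pools used log2(CPM + 1). Replicate libraries differed by more than sampling noise (chi-square per degree of freedom of at least 1.37). DESeq2 1.42.0 and Python 3.11.15 were used for alternatives and summaries.

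The labels state that the fractions share a pool, so the pools pair the libraries. Deviations from the group means correlated with r = 0.249, 0.159 and -0.253 in pools A, B and C over 170 miRNAs. The comparison, the lists and the rule for named miRNAs were chosen with earlier results of these data known. The rule took the called miRNAs with the largest changes, at least 10 mean counts in each group and the same direction in all pools (10 per direction, of which 2 are printed because identifiers are not paired with names), and the 10 most abundant of control. The miRNA without a control count and those given by rank outside the 10 most abundant were chosen after their values were seen. Seed family, hairpin cluster and tissue marker lists had been planned and could not be matched to identifiers.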

Additional observations from a re-analysis of the deposited data

How the results depend on the processing

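When the pool entered the fit as a replicate block, 91 miRNAs were called, the 82 of the report among them, so the pairing ended no call. Without TMM factors 83 were called, with DESeq2 83 (76 of them shared with the 82), without a filter 75 of 875 tested, and with at least 50 counts in 3 libraries 81 of 204 tested, of which 51.9% were higher in place of 62.2%. At an adjusted p below 0.01, 69 were called. With at least 50 counts in 3 libraries, 68 of the 82 calls were kept. None of the 82 calls was seen to change direction under any of these settings or when libraries were left out. miRNAs that no longer passed the filter were not tested in that setting. When 1 library or 1 pool was left out, between 65 and 76 miRNAs were called, 43 to 49 higher and 20 to 31 lower. These fits tested 213 to 366 miRNAs and kept 63 to 73 of the 82 calls. The count of lower miRNAs moved by more than 1.5 times only without pool B (20 in place of 31), and the cause was not tested. The calls of miR-16-5p and of the 4 named identifiers held in every setting in which they were tested, with miR-16-5p at log2 fold changes of -0.39 to -0.30. The size of their p-values depended strongly on the setting. For MIMAT0000162 the edgeR adjusted p was 5.07e-16 with at least 50 counts in 3 libraries and at most 2.08e-10 over all settings. For MIMAT0000212 it was at most 0.0114. Other settings for seed families, hairpin clusters, hairpin arms and GC content were not run, because identifiers could not be matched to sequences. Depth limits the control group: 3 counts correspond to 9.07 to 14.6 CPM in a single control library and to 3.82 CPM over the group, and fold changes of miRNAs near these levels are imprecise.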
